A study of Homo sapiens with 18 samples.

Results

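The genes described here are 9 that act around the end of mitosis: UBE2C, UBE2S, CDC20, PTTG1, AURKA, PLK1, TPX2, CCNB2 and TOP2A. They were taken by symbol from each expression table, 9 of the 58735 genes of the full tables, and every one was found in all 3 tables. The study profiled RNA of 786-O cells, an established line of clear cell renal carcinoma, after knockdown of RBCK1, ANKRD35 or MITD1. RBCK1 is a ubiquitin ligase, ANKRD35 an ankyrin repeat protein and MITD1 a protein of the last step of cell separation. Each of 6 groups had 3 libraries: cells with a short hairpin against RBCK1 (shRBCK1) and their hairpin control (shcontrol), cells with an siRNA against ANKRD35 (siANKRD35) and their control (sicontrol_for_siANKRD35), and cells with an siRNA against MITD1 (siMITD1) and their control (sicontrol_for_siMITD1). All groups were the same line in the same serum-containing medium. The ANKRD35 knockdown columns carry the word ShRNA while the sample titles say si, so the reagent of that group is uncertain. The MITD1 knockdown columns are all headed Si01, which may be the number of a single siRNA. How many hairpins or siRNAs were used is otherwise not stated, and no sequences are given in the sources used here. No label says that replicates were separate cultures, so the p-values reflect how far these libraries spread, and that spread may be technical.

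The anaphase-promoting complex, or cyclosome (APC/C), is a ubiquitin ligase that ends mitosis by marking securin and B-type cyclins for destruction. UBE2C starts the ubiquitin chains on its substrates, UBE2S lengthens them, and CDC20 is the coactivator that presents substrates in metaphase and anaphase. Securin, the product of PTTG1, holds separase in check. CCNB2 encodes cyclin B2, AURKA and PLK1 are mitotic kinases, and TPX2 activates AURKA on spindle microtubules. The proteins of these 5 genes are themselves destroyed by the complex, from metaphase on. TOP2A, the topoisomerase that untangles sister chromatids, is made in dividing cells. The messenger RNAs of most such genes peak in G2 and mitosis, and the RNA of a bulk culture cannot tell a larger share of mitotic cells from more RNA per cell.

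Transcription of many G2 and mitosis genes is known to run through a cell cycle homology region and nearby CCAAT boxes close to the start site. RefSeq promoters, 250 bases before to 50 bases after the start site on GRCh38.p14, were found for 6 of the 9 genes: UBE2S, CDC20, PTTG1, PLK1, CCNB2 and TOP2A. UBE2C, AURKA and TPX2 had no entry. Both strands were searched for TTTGAA, its variant TTCGAA and CCAAT, with overlapping matches counted. TTTGAA lay in 4 of the 6 (CDC20, PLK1, CCNB2 and TOP2A), against 15.2% of 35116 promoters of the same length. TTCGAA lay in none of the 6 and in 1.45% of all, and CCAAT lay in 6 of 6 and in 34.6% of all. The 4 with TTTGAA are shown 5′ to 3′ because they did not move alike below. CDC20 is chr1:43358731-43359030 on the plus strand, PLK1 chr16:23678639-23678938 on the plus strand, CCNB2 chr15:59104896-59105195 on the plus strand and TOP2A chr17:40417847-40418146 on the minus strand. Capitals mark TTTGAA and CCAAT or their reverse complements, TTCAAA and ATTGG.
CDC20: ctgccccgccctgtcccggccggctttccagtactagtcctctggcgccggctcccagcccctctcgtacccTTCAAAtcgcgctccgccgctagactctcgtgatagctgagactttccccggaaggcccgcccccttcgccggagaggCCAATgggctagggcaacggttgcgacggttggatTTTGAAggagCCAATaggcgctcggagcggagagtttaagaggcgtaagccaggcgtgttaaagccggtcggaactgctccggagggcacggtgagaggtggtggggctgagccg
PLK1: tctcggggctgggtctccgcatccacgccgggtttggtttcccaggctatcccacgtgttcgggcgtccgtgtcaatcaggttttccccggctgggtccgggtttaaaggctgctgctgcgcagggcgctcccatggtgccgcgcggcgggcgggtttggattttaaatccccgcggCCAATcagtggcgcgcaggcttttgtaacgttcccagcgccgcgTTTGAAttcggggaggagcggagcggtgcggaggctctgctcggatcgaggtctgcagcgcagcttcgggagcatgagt
CCNB2: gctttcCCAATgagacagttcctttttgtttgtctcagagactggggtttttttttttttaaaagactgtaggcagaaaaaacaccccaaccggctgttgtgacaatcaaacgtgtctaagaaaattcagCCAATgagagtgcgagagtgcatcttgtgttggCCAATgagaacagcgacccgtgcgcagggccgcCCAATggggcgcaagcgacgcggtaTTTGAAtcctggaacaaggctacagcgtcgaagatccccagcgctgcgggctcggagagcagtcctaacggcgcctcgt
TOP2A: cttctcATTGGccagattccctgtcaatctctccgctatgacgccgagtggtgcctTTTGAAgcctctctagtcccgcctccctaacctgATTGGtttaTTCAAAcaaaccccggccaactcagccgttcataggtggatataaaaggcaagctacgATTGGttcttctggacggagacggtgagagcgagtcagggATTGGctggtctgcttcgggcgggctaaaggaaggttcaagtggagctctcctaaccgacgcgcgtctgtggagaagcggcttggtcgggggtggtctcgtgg

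PLK1 and CCNB2 held TTTGAA at the same distance, with its leftmost base 29 bases before the RefSeq start site, and with 1 and 4 CCAAT boxes. CDC20 had 2 matches, 178 bases before it on the opposite strand and 65 bases before it, with 2 CCAAT boxes. TOP2A had matches at 194 and, on the opposite strand, 151 bases before it, and 4 CCAAT boxes. UBE2S had 1 CCAAT box, and PTTG1, which had a pair of overlapping entries, had 3, of which 1 pair overlapped. Distances hold for the RefSeq start sites alone. The expression tables start PLK1 at 23677656, before its RefSeq promoter, and CCNB2 at 59105078, inside its promoter. A match is a description of letters and was not tested as a site.

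On GRCh38 the coordinates of the tables placed UBE2C at chr20:45812576-45816957 and TPX2 at chr20:31739271-31801805 on the plus strand and AURKA at chr20:56369389-56392337 on the minus strand, all on chromosome 20. CDC20 lay at chr1:43358955-43363203, PTTG1 at chr5:160421822-160428744, PLK1 at chr16:23677656-23690367 and CCNB2 at chr15:59105078-59125045, all on the plus strand. UBE2S lay at chr19:55399745-55407777 and TOP2A at chr17:40388516-40417950, both on the minus strand. UBE2S overlaps RPL28, a ribosomal protein gene on the opposite strand. The library kit was directional per the labels, but the counting strand is not given in the sources used here, so reads of the pair could be shared. RPL28 averaged 152.6 FPKM in siANKRD35 cells and 111 FPKM in their control, a change of 0.44 beside the 0.43 of UBE2S given below, and its part in the UBE2S values was not tested. The UBE2S pseudogene UBE2SP1 also held 13.2 FPKM in siANKRD35 cells and 10.6 FPKM in their control. UBE2SP2 was at most 3.89 FPKM and the other copies searched (UBE2CP1 to UBE2CP4, CDC20P1, CCNB2P1, PTTG2 and PTTG3P) stayed under 1 FPKM in each library where they are listed. TOP2A holds RF00019, a small RNA gene at 3.90 FPKM at most, and the genes overlapping PLK1 and CCNB2 were under 1 FPKM, in the RBCK1 and ANKRD35 tables. UBE2S values are uncertain because of RPL28 and UBE2SP1.

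Values are FPKM, fragments scaled for gene length and library size, as deposited, so levels of different genes can be compared per length within a table. The tables were normalized separately, and each knockdown was compared only with its own control. The libraries held 16346478 to 18648246 reads in the RBCK1 table, 17502646 to 19034974 in the ANKRD35 table and 12703947 to 13888443 in the MITD1 table, as recovered from the FPKM steps. All 8 markers of 786-O cells reached a mean of 1 FPKM in each table. The endothelial markers, 5 in the RBCK1 and ANKRD35 tables and 4 in the MITD1 table, and the 4 blood cell markers reported here each summed to under 1 FPKM in each library, with CD3E and HBB at 0 throughout, and the 5 fibroblast markers to at most 4.69 FPKM. RBCK1 stood at 31.9 ± 1.04 FPKM in shRBCK1 cells and 480.3 ± 16.0 FPKM in shcontrol cells (SD, n = 3 each). ANKRD35 was listed at 0 in 2 siANKRD35 libraries and at 0.0332 FPKM in the other, against 727 ± 35.4 FPKM in their control (SD, n = 3). MITD1 stood at 2.71 ± 0.303 FPKM in siMITD1 cells and 7.47 ± 0.336 FPKM in their control (SD, n = 3 each), so a good part of it was left. In log2(FPKM + 1) the targets changed by −9.49 (ANKRD35), −3.87 (RBCK1) and −1.19 (MITD1), so the ANKRD35 contrast differs from the others. Why almost no ANKRD35 signal was left was not tested. Replicates in the RBCK1 table correlated at r of 0.992 or more, and those in the MITD1 table at 0.994 or more. The siANKRD35 libraries stood apart among themselves, with r of 0.970 to 0.990, and the members' changes, their sum, their ratios and the list counts of that table are also given without replicate 2.

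All 9 genes were strongly expressed, at 21.1 to 236.5 FPKM over 162 values and 1112 to 11265 reads a value, so the counting error of the lowest was 3.0%. Each passed the filter on low values in each table, through both groups. CDC20 was the most abundant in shRBCK1, shcontrol and sicontrol_for_siMITD1 cells. UBE2S led in both groups of the ANKRD35 table, though its libraries overlapped those of CDC20. UBE2C and CDC20 shared the top in siMITD1 cells, at 171 ± 6.02 and 166 ± 1.28 FPKM with overlapping libraries. CCNB2 was the lowest in 5 of 6 groups, from 22.1 FPKM in sicontrol_for_siANKRD35 cells to 50.3 FPKM in sicontrol_for_siMITD1 cells. In siMITD1 cells PLK1 was the lowest instead, and CCNB2 stood above AURKA, with libraries that overlapped those of PTTG1. TOP2A libraries overlapped those of UBE2S in shRBCK1 cells, and those of PLK1, lower in the order, in shcontrol cells. The 9 levels summed to 795 ± 16.7 FPKM in shRBCK1 and 696 ± 12.1 FPKM in shcontrol cells, to 735 ± 38.1 FPKM in siANKRD35 and 551 ± 4.06 FPKM in sicontrol_for_siANKRD35 cells, and to 923 ± 7.12 FPKM in siMITD1 and 945 ± 8.57 FPKM in sicontrol_for_siMITD1 cells (SD, n = 3 each). Without siANKRD35 replicate 2 the sum averaged 749.9 FPKM over the other 2 siANKRD35 libraries.

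**Figure D1:**
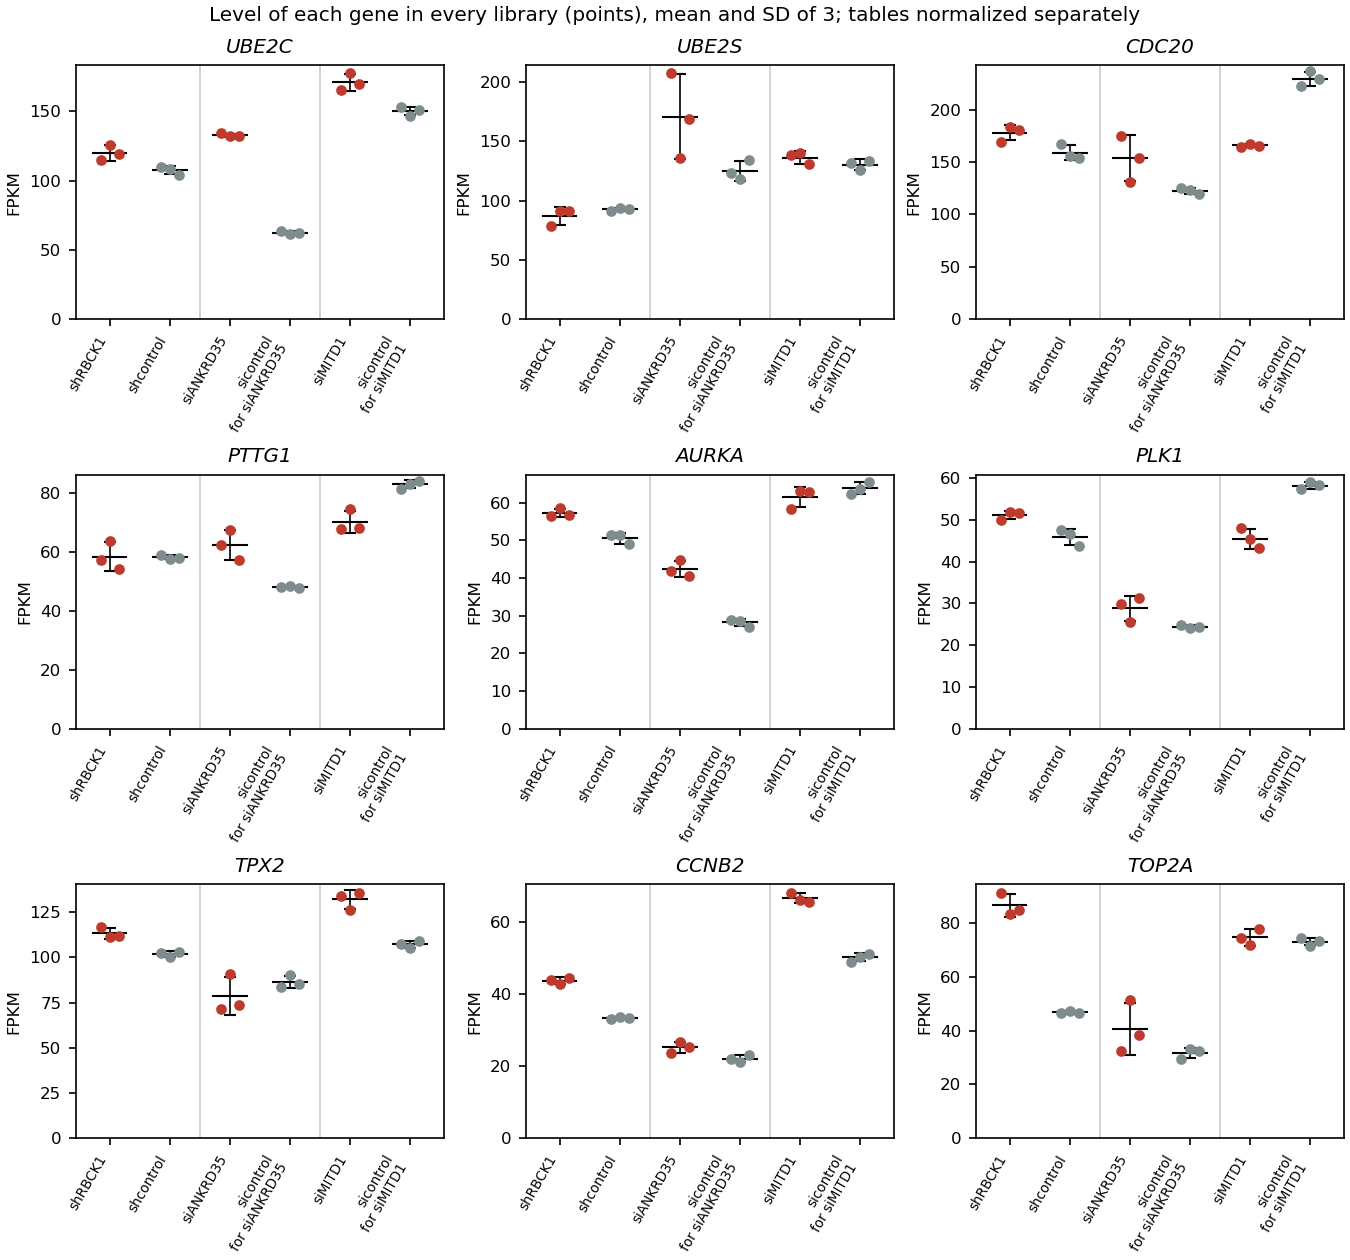
FPKM (vertical axes, from 0) of each of the 9 genes in every library, by group, with each knockdown left of its control; points are libraries, horizontal lines means and bars SD of 3. UBE2C libraries lie above their control in each table, TOP2A stands out in shRBCK1 cells, and UBE2S, CDC20, TPX2 and TOP2A spread widely in siANKRD35 cells.

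In RBCK1 knockdown cells 7 of the 9 genes rose, none fell and 2 did not pass. TOP2A rose most, to 1.85 times its control level, and CCNB2 rose by 30.7%. UBE2C, CDC20, AURKA, PLK1 and TPX2 each rose by a smaller and like amount, 11.2 to 13.3%. UBE2S and PTTG1 did not pass. Each gene was tested with limma on log2(FPKM + 1) over all 12227 genes of the table that reached 1 FPKM in 3 or more libraries, and called at a Benjamini-Hochberg adjusted p under 0.05. By that rule 24.1% of all tested genes were higher and 24.9% were lower. Changes below are differences in log2(FPKM + 1), knockdown minus control.

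TOP2A held 91.3, 83.3 and 85.0 FPKM in shRBCK1 libraries, against 46.4, 47.3 and 46.5 FPKM in shcontrol libraries. The lowest knockdown library was far above the highest control library. The change was 0.87 ± 0.0397 (SE, limma adjusted p = 3.1e-06), and 0.573% of the tested genes had a larger one. Under the 14 alternative settings it stayed between 0.83 and 0.97.

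Among the APC/C enzymes, the chain starter UBE2C held 115, 126 and 119 FPKM in shRBCK1 libraries and 110.1, 108 and 104 FPKM in shcontrol libraries. The groups did not overlap, though the nearest pair of libraries differed by a few FPKM, and the change was 0.16 ± 0.0415 (SE, limma adjusted p = 0.0174). The chain extender UBE2S held 78.4, 91.4 and 90.9 FPKM in shRBCK1 libraries and 91.0, 93.5 and 93.0 FPKM in shcontrol libraries. Its groups overlapped, with 1 knockdown library below the rest, and the change was −0.09 (95% interval −0.23 to 0.05, limma adjusted p = 0.234). The coactivator CDC20 held 169.6, 183 and 181 FPKM in shRBCK1 libraries and 167, 156 and 153 FPKM in shcontrol libraries. The groups were apart by less than the spread within either, and the change was 0.16 ± 0.0459 (SE, limma adjusted p = 0.0213). The call of CDC20 was lost without shRBCK1 replicate 2 or 3 and without shcontrol replicate 2 or 3 (limma adjusted p of 0.0611 to 0.0715), and with no filter on low values (0.0819); over all settings its adjusted p ran from 3.2e-05 to 0.0819. The call of UBE2C was lost without shcontrol replicate 3 (0.0561) and with no filter (0.0609), within a range of 0.00016 to 0.0609.

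Among the substrates, PTTG1 held 57.4, 63.7 and 54.3 FPKM in shRBCK1 libraries and 59.1, 57.6 and 58.0 FPKM in shcontrol libraries. The control libraries lay inside the range of the knockdown libraries, and the change was 0.00 (95% interval −0.13 to 0.13, limma adjusted p = 0.974). CCNB2 held 43.9, 42.8 and 44.6 FPKM in shRBCK1 libraries and 33.2, 33.8 and 33.4 FPKM in shcontrol libraries. The gap between the groups was many times the spread within them, with a change of 0.38 ± 0.0303 (SE, limma adjusted p = 6.2e-05). AURKA held 56.5, 58.5 and 56.7 FPKM in shRBCK1 libraries and 51.3, 51.3 and 48.9 FPKM in shcontrol libraries, a change of 0.18 ± 0.0334 (SE, limma adjusted p = 0.00381). Its activator TPX2 held 117, 111 and 112 FPKM in shRBCK1 libraries and 102, 100.3 and 103 FPKM in shcontrol libraries, a change of 0.15 ± 0.0316 (SE, limma adjusted p = 0.00609). The kinase PLK1 held 49.9, 51.8 and 51.5 FPKM in shRBCK1 libraries and 47.5, 46.6 and 43.8 FPKM in shcontrol libraries, a change of 0.15 ± 0.0386 (SE, limma adjusted p = 0.0148). None of these 3 spindle regulators overlapped between the groups, and their calls held under each of the 14 settings. Over all tested genes 29.4% had knockdown libraries wholly above control, as 7 of the 9 did here. The median change of the 9 was 0.16, beside 0.01 over all genes tested, and 0.25 beside 0.039 under quantile normalization. Quantile normalization gave larger changes for UBE2C (0.25), CDC20 (0.31), PLK1 (0.23) and TPX2 (0.25).

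In ANKRD35 knockdown cells UBE2C rose to 2.13 times its control level, AURKA by 50.6% and PTTG1 by 29.8%. The other 6 did not pass, and none fell. The knockdown libraries of 4 of those 6, UBE2S, CDC20, PLK1 and CCNB2, still lay wholly above their control. Here 11890 genes were tested, of which 19.4% were higher and 16.9% lower.

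UBE2C held 134, 132.4 and 132 FPKM in siANKRD35 libraries, against 63.5, 61.4 and 61.9 FPKM in their control libraries. Both groups were tight, and no library lay between them. The change was 1.08 ± 0.0606 (SE, limma adjusted p = 0.000311), which 0.513% of tested genes exceeded, and it stayed between 0.81 and 1.09 under the 14 settings. AURKA held 41.9, 44.8 and 40.6 FPKM in siANKRD35 libraries and 28.9, 28.6 and 27.0 FPKM in their control libraries. The groups were well apart, with a change of 0.57 ± 0.0713 (SE, limma adjusted p = 0.00211); quantile normalization and correction for length and GC content lowered it to 0.37 and 0.38 with the call kept. PTTG1 held 62.3, 67.5 and 57.3 FPKM in siANKRD35 libraries and 48.1, 48.4 and 47.7 FPKM in their control libraries, a change of 0.37 ± 0.0787 (SE, limma adjusted p = 0.0123). The groups did not overlap, but the call was lost without any 1 of the 3 control libraries (limma adjusted p of 0.0568 to 0.0586). It was also lost with changes of 0.12 under quantile normalization (0.326), 0.11 with a gene length correction (0.440) and 0.14 with length and GC correction (0.150).

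UBE2S held 208, 136 and 169 FPKM in siANKRD35 libraries and 123, 118 and 134 FPKM in their control libraries. Replicate 2 came close to the control and replicate 1 was far above it, with a change of 0.43 (95% interval 0.07 to 0.78, limma adjusted p = 0.0636). CDC20 held 175, 131 and 154 FPKM in siANKRD35 libraries and 125, 124 and 119 FPKM in their control libraries, a change of 0.31 (95% interval 0.05 to 0.57, limma adjusted p = 0.0615). PLK1 held 29.7, 25.5 and 31.3 FPKM in siANKRD35 libraries and 24.9, 24.1 and 24.4 FPKM in their control libraries, a change of 0.23 (95% interval 0.01 to 0.44, limma adjusted p = 0.0889). In all 3, siANKRD35 replicate 2 was the library nearest to the control. CCNB2 held 23.7, 26.9 and 25.2 FPKM in siANKRD35 libraries and 22.1, 21.1 and 23.1 FPKM in their control libraries, a change of 0.18 (95% interval 0.00 to 0.37, limma adjusted p = 0.102). TOP2A held 32.4, 51.3 and 38.4 FPKM in siANKRD35 libraries and 29.5, 33.0 and 32.3 FPKM in their control libraries, a change of 0.33 (95% interval −0.04 to 0.71, limma adjusted p = 0.142). TPX2 held 71.5, 90.8 and 73.6 FPKM in siANKRD35 libraries and 83.5, 90.1 and 85.5 FPKM in their control libraries, a change of −0.14 (95% interval −0.38 to 0.10, limma adjusted p = 0.321). In these 3, replicate 2 was instead the highest knockdown library, and TOP2A and TPX2 overlapped their control.

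The spread among the siANKRD35 libraries ran with base composition. The deviation of replicate 2 from its group had a Spearman rho of −0.726 with transcript GC content over 11885 genes, against 0.672 for replicate 1 and 0.436 for replicate 3. The 3 GC-richest of the 9, CDC20 (57.9%), PLK1 (57.1%) and UBE2S (55.7%), were the 3 furthest below their group mean in replicate 2, by −0.22, −0.17 and −0.31. TOP2A, the GC-poorest at 39.1%, was furthest above it, at 0.35, and TPX2 (46.8%) was at 0.21. UBE2C, at 50.0% GC, was within 0.02 of its mean in each of the 3 libraries. Without replicate 2, UBE2S (0.58), CDC20 (0.42) and PLK1 (0.31) passed higher and TPX2 (−0.25) passed lower, with limma adjusted p of 0.00349, 0.00235, 0.00246 and 0.00710, and 6 of the 9 were higher and 1 lower. Of all tested genes 29.7% were then higher and 25.9% lower. Each deviation is from the mean of the same 3 libraries, so the negative rho of replicate 2 in part sets the positive rho of replicates 1 and 3. The part of GC content in these calls was not tested. The changes of TOP2A (0.16, limma adjusted p = 0.160) and CCNB2 (0.14, limma adjusted p = 0.0821) were smaller without replicate 2 and did not pass. UBE2C (1.08), AURKA (0.53) and PTTG1 (0.31) kept their calls. TOP2A passed without replicate 1 (0.48, limma adjusted p = 0.0350). Corrected for length and GC content, TOP2A (0.35), PLK1 (0.24) and TPX2 (−0.29) passed, with limma adjusted p of 0.0142, 0.00979 and 0.0285. The direction of CDC20 turned under quantile normalization (−0.06), and that of CCNB2 under the length (−0.001) and the length and GC correction (−0.04). Changes in this table also ran with gene length across genes, at a Spearman rho of −0.41, against 0.03 in the RBCK1 and 0.09 in the MITD1 table. With GC content the changes of the ANKRD35 table, with every library kept, had a rho of −0.003. The part of GC content and length in the members' changes was not tested beyond these corrections. Over all tested genes 28.1% had knockdown libraries wholly above control, as 7 of the 9 did, and the median change of the 9 was 0.33 beside 0.03 over all genes tested. That median was 0.082 beside 0.015 under quantile normalization, 0.20 beside 0.020 with a gene length correction and 0.31 beside 0.023 without replicate 2.

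**Figure D2:**
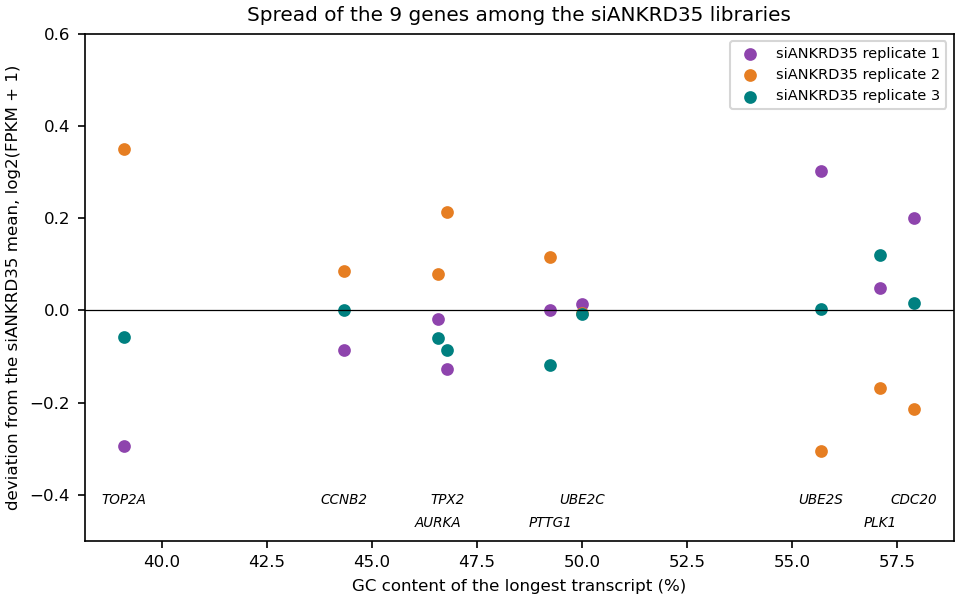
Deviation of each gene from its siANKRD35 group mean in log2(FPKM + 1) (vertical axis) against the GC content of its longest transcript in % (horizontal axis), 1 point per library and gene. Replicate 2 lies above 0 for the GC-poor genes, at 0.35 for TOP2A, and below 0 for the 3 GC-rich ones, at −0.31 for UBE2S.

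In MITD1 knockdown cells 3 of the 9 genes were higher, 3 were lower and 3 did not pass. CCNB2 rose by 32.9%, TPX2 by 23.1% and UBE2C by 13.8%. CDC20 fell by 27.7%, PLK1 by 21.8% and PTTG1 by 15.5%. UBE2S, AURKA and TOP2A did not pass. Of the 10415 genes tested here 30.0% were higher and 35.6% lower. The counts of 3 of 9 in each direction are near those shares and are values only.

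Of the APC/C enzymes, UBE2C held 166, 177 and 169.7 FPKM in siMITD1 libraries and 153, 147 and 151 FPKM in their control libraries. The groups did not overlap, with a change of 0.19 ± 0.0312 (SE, limma adjusted p = 0.000812). UBE2S held 138, 140.0 and 130.4 FPKM in siMITD1 libraries and 132, 125 and 134 FPKM in their control libraries. These overlapped, with a change of 0.06 (95% interval −0.02 to 0.15, limma adjusted p = 0.148). UBE2S passed with median ratio scaling (0.09, limma adjusted p = 0.0426), with a length (0.13, 0.00885) or length and GC correction (0.15, 0.00338) and without siMITD1 replicate 3 (0.09, 0.0450), in a range of 0.00338 to 0.401. The coactivator CDC20 held 165, 167 and 166 FPKM in siMITD1 libraries and 223, 237 and 229 FPKM in their control libraries. The knockdown libraries were nearly level and far below the control, with a change of −0.47 ± 0.0270 (SE, limma adjusted p = 1.7e-06).

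Securin's gene PTTG1 held 67.7, 74.4 and 68.2 FPKM in siMITD1 libraries and 81.5, 83.2 and 84.3 FPKM in their control libraries. Each knockdown library was below each control library, with a change of −0.24 ± 0.0390 (SE, limma adjusted p = 0.000641), or −0.16 with a length correction. PLK1 held 48.0, 45.3 and 43.2 FPKM in siMITD1 libraries and 57.3, 58.9 and 58.3 FPKM in their control libraries. It too was below control throughout, with a change of −0.35 ± 0.0393 (SE, limma adjusted p = 7.5e-05). CCNB2 held 68.3, 66.4 and 65.8 FPKM in siMITD1 libraries and 49.1, 50.5 and 51.3 FPKM in their control libraries. This cyclin was above control throughout, with a change of 0.40 ± 0.0295 (SE, limma adjusted p = 6.1e-06).

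TPX2 held 134, 126 and 136 FPKM in siMITD1 libraries and 107, 105 and 109 FPKM in their control libraries, a change of 0.30 ± 0.0323 (SE, limma adjusted p = 6.1e-05). Its groups were well apart. AURKA, the kinase that TPX2 activates, held 58.4, 63.0 and 62.9 FPKM in siMITD1 libraries and 62.3, 63.5 and 65.5 FPKM in their control libraries, a change of −0.05 (95% interval −0.14 to 0.03, limma adjusted p = 0.224). TOP2A held 74.4, 71.6 and 77.8 FPKM in siMITD1 libraries and 74.3, 71.6 and 73.3 FPKM in their control libraries, a change of 0.03 (95% interval −0.05 to 0.11, limma adjusted p = 0.481). Both overlapped. The direction of AURKA turned with a length correction (0.01). Over all tested genes 32.5% had knockdown libraries wholly above control and 37.9% wholly below, and 3 of the 9 did each, near those shares. The median change of the 9 was 0.03 beside −0.03 over all genes tested, −0.00099 without siMITD1 replicate 3 and 0.060 with median ratio scaling. The 6 calls held under each of the 14 settings.

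**Figure D3:**
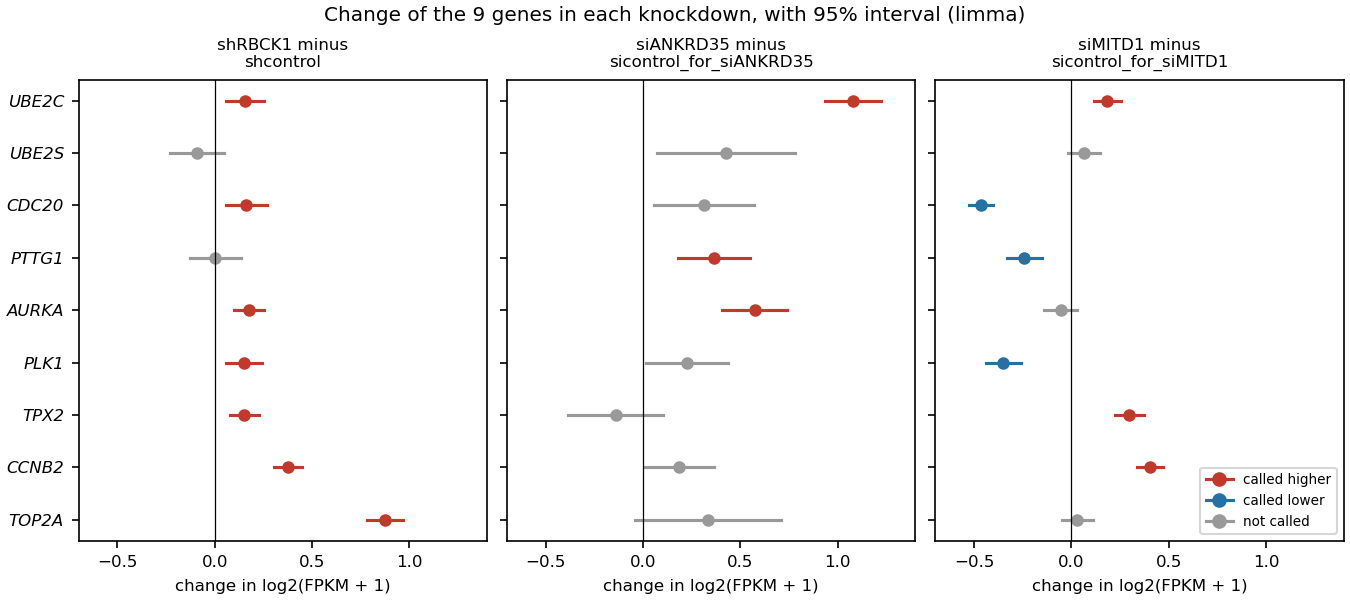
Change of each gene in log2(FPKM + 1), knockdown minus control (horizontal axes), in the 3 comparisons, with the 95% interval from limma; colours show the call at an adjusted p under 0.05. Of the 9 genes 7 lie to the right as called in the RBCK1 knockdown, 3 in the ANKRD35 knockdown, and 3 on each side in the MITD1 knockdown.

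Across the 3 knockdowns UBE2C rose in each, and UBE2S passed in none. AURKA, TPX2 and CCNB2 rose in 2 and TOP2A in 1. CDC20, PTTG1 and PLK1 rose in 1 comparison and fell in the MITD1 knockdown. The 3 comparisons had separate controls in separately normalized tables, so differences between them were not tested, and the changes stand side by side.

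Ratios within a library do not move with library scaling, and 2 were compared with an exact permutation test of 3 against 3, two-sided, whose smallest possible p is 0.1. CCNB2 to PLK1, a pair whose RefSeq promoters hold TTTGAA at the same distance, was 1.42, 1.47 and 1.52 in siMITD1 libraries and 0.857, 0.856 and 0.880 in their control libraries. The groups were far apart, by 0.77 in log2 or 1.70-fold (exact permutation p = 0.1). CCNB2 lay wholly above and PLK1 wholly below control in these same libraries, so this separation and its p follow from those values. The same ratio was 0.879, 0.826 and 0.866 in shRBCK1 libraries and 0.700, 0.725 and 0.762 in shcontrol libraries, by 0.23 in log2 (exact permutation p = 0.1). In siANKRD35 libraries it was 0.797, 1.05 and 0.806, against 0.888, 0.876 and 0.950 in their control libraries, a difference of −0.04 with overlapping groups (exact permutation p = 0.9), or −0.17 without replicate 2. The ratio of the chain starter to the chain extender, UBE2C to UBE2S, was higher in each knockdown library than in each control library of its table. It was 0.646, 0.973 and 0.783 in siANKRD35 libraries and 0.515, 0.520 and 0.461 in their control libraries, by 0.66 in log2 or 1.58-fold (exact permutation p = 0.1), or by 0.51 without replicate 2. It was higher by 0.25 in shRBCK1 and by 0.12 in siMITD1 libraries (exact permutation p = 0.1 in both). With 6 ratios compared, the adjusted p cannot fall below the raw 0.1, and the doubt over UBE2S reads applies to this ratio. Ratios can still move with gene length and GC content. UBE2C has 1286 bases and 50.0% GC, UBE2S 2788 bases and 55.7%, and changes of the ANKRD35 table ran with length (rho −0.41). The part of length and GC content in the ratios was not tested.

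**Figure D4:**
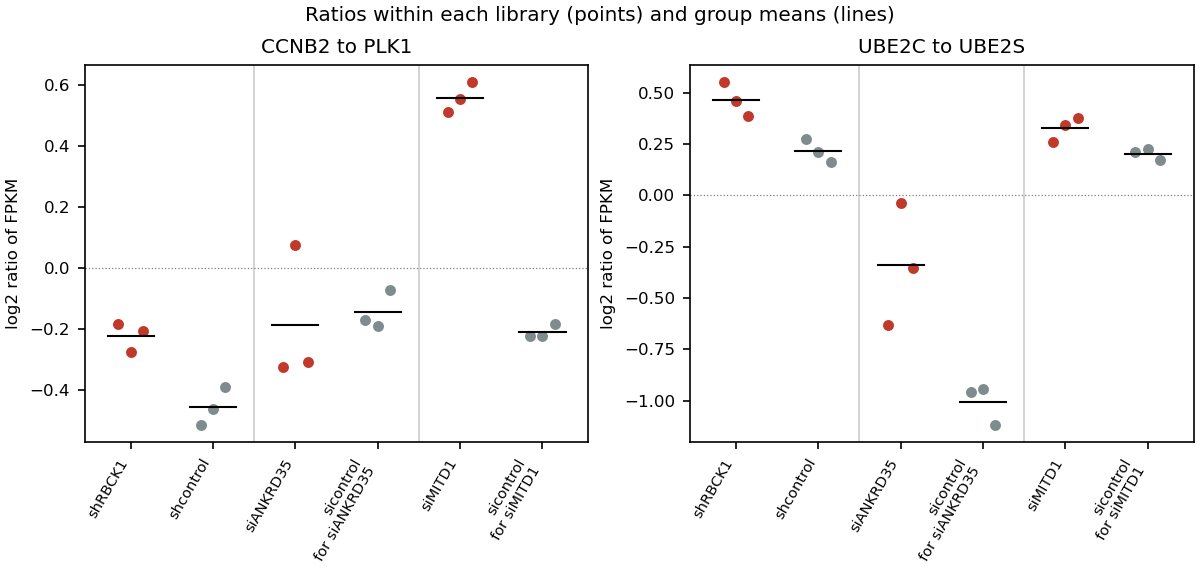
Log2 ratio of FPKM of CCNB2 to PLK1 (left) and of UBE2C to UBE2S (right) in each library, by group, with each knockdown left of its control; points are libraries and lines group means. The siMITD1 libraries lie above their control for CCNB2 to PLK1 by 0.77, and the siANKRD35 libraries above theirs for UBE2C to UBE2S by 0.66.

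The genes around these 9 were followed in 8 lists of 81 genes in all: subunits of the APC/C, its other coactivator with inhibitors and checkpoint proteins, its other substrates, partners of AURKA, PLK1 and TPX2, the chromosomal passenger complex, the CDK1 switch with the Greatwall branch, TOP2B with the condensins, and the DREAM, MuvB, FOXM1 and B-MYB regulators of G2 and mitosis genes. AURKB and CCNB1 stand in 2 lists each. In the RBCK1 knockdown 40 of 78 tested genes rose and 9 fell, in the ANKRD35 knockdown 26 of 77 rose and 8 fell, and in the MITD1 knockdown 19 of 77 rose and 38 fell. The median changes were 0.14, 0.19 and −0.13, beside 0.01, 0.03 and −0.03 over all genes tested. Of all tested genes 24.1% were higher and 24.9% lower in the RBCK1 knockdown, 19.4% and 16.9% in the ANKRD35 knockdown, and 30.0% and 35.6% in the MITD1 knockdown. List counts near those shares, such as 4 of 13 APC/C subunits higher in the RBCK1 knockdown and 3 of 13 in the ANKRD35 knockdown, are values only, and the 19 of 77 higher in the MITD1 knockdown are below that table's share.

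In the RBCK1 knockdown TOP2A rose, and of TOP2B and the 8 condensin genes 8 rose and 1 fell. NCAPD2 averaged 52.9 ± 1.46 FPKM in shRBCK1 and 34.7 ± 0.548 FPKM in shcontrol cells (SD, n = 3 each), SMC2 changed by 0.50 and NCAPG2 by 0.28, while NCAPH2, of the second condensin complex, fell by 0.23. Of 12 genes of the CDK1 switch 8 rose and 3 fell. CDK1, the partner kinase of cyclin B, averaged 40.9 ± 0.795 FPKM in shRBCK1 and 29.3 ± 1.30 FPKM in shcontrol cells. MASTL, the Greatwall kinase that blocks the opposing phosphatase, averaged 16.6 ± 1.24 FPKM in shRBCK1 and 30.6 ± 2.05 FPKM in shcontrol cells, a change of −0.85, while ARPP19, its target, rose by 0.42. CDC25A, a phosphatase that activates CDK1, fell by 0.36, and PPP2R2A, a subunit of a phosphatase, fell by 0.25. Of 13 other APC/C substrates 8 rose and 1 fell: SKP2 changed by 0.62, CCNA2 by 0.45 and CDCA3 by 0.45, and AURKB fell by 0.25. Of 13 subunits 4 were higher (ANAPC16 at 0.43, CDC27 at 0.33 and CDC23 at 0.20 among them) and none lower, or 8 higher with voom on recovered reads. Of 10 coactivator, inhibitor and checkpoint genes 5 rose and 2 fell, led by BUB1B, a checkpoint protein that binds CDC20, at 0.55, and MAD2L1BP, which takes the checkpoint apart, at −0.72. FBXO5 rose by 0.35 and MAD1L1, a checkpoint protein, fell by 0.12; 1 gene of this list fell, not 2, under quantile normalization, with voom and with either correction for length. Of 9 spindle partners 3 rose, TACC3 by 0.31 and HMMR by 0.22 among them, and AJUBA fell by 0.43; 5 rose with voom, and 2 fell under quantile normalization or the gene length correction. Of the 4 passenger genes 3 rose, INCENP by 0.38 and BIRC5 by 0.27 among them, and AURKB fell. Of 10 regulators RBL1 (0.69) and RBL2 (0.55) rose and MYBL2, which encodes B-MYB, fell by 0.23; with voom 4 rose. MKI67 (0.34) and PCNA (0.37), general markers of dividing cells, rose as well, and MCM2 was at 0.08 and did not pass; their part in the members' changes was not tested.

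In the ANKRD35 knockdown UBE2C rose with CDK1, which averaged 51.2 ± 10.8 FPKM in siANKRD35 and 20.6 ± 1.34 FPKM in control cells (SD, n = 3 each), a change of 1.26, or 1.09 without replicate 2. All 4 passenger genes rose, with AURKB at 0.68, CDCA8 at 0.51 and BIRC5, survivin, at 0.42, though 2 of the 4 passed without any 1 of the control libraries. Of 13 other substrates 8 rose and 1 fell, with CCNA2 at 0.67, CCNB1 at 0.63 and CDCA3 at 0.57, while ESPL1, the separase that securin inhibits, was at −0.44. Of 10 coactivator, inhibitor and checkpoint genes 6 rose and none fell, led by FBXO5, an inhibitor of the complex, at 0.83, BUB3 at 0.63 and MAD2L1 at 0.55. Of 13 subunits 3 rose, ANAPC13 by 0.66, ANAPC11 by 0.60 and CDC16 by 0.41, and none fell. Of 8 tested spindle partners 3 fell and none rose: NUMA1 fell by 0.58, AJUBA by 0.47 and CEP192 by 0.29. Of 9 TOP2B and condensin genes NCAPH rose by 0.79, NCAPD2 fell by 0.54 and SMC4 fell by 0.47. Of 12 genes of the CDK1 switch 4 rose and 1, CDC25B, fell by 0.37. Of 10 regulators FOXM1 fell by 0.43, and LIN9 (0.63) and RBBP4 (0.32) rose. PCNA rose by 0.51, MKI67 fell by 0.38 and MCM2, at −0.21, did not pass. Without siANKRD35 replicate 2 the lists gave 36 higher and 16 lower, without replicate 3 17 and 6, and without a control library 13 to 15 and 5. Over all tested genes 29.7% were higher and 25.9% lower without replicate 2. Without replicate 3, 1470 of 11725 genes were higher and 1344 lower. Without a control library 1158 to 1211 were higher and 999 to 1029 lower, of 11603 to 11617 tested. The counts over all genes moved too, so the moves of the list counts are values only. Without replicate 2, 7 of 13 subunits were higher and 1 lower, 9 of 10 coactivator, inhibitor and checkpoint genes were higher and 7 of 13 other substrates were higher and 2 lower. There 1 of 8 spindle partners was higher and 5 lower, all 4 passenger genes were higher, and 5 of 12 genes of the CDK1 switch were higher and 2 lower. Of TOP2B and the condensins 1 was higher and 4 lower, and of 10 regulators 4 were higher and 2 lower. Without any 1 of the control libraries the 3 regulator calls were lost and 4 or 5 other substrates were higher. With a gene length correction 1 of the 8 spindle partners was lower and 4 of the 13 other substrates and 4 of the 10 coactivator, inhibitor and checkpoint genes were higher. Under quantile normalization 3 of those 10 and 5 of the other substrates were higher, and with voom 5 of the other substrates. With length and GC correction 7 of the 13 subunits were higher, and 4 TOP2B and condensin genes were higher and 3 lower. Of all 11890 tested genes 1706 were higher and 1653 lower with the length correction, and 1675 and 2036 under quantile normalization. With voom 1747 were higher and 2724 lower, and with length and GC correction 2718 and 2526.

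In the MITD1 knockdown 9 of the 13 other APC/C substrates were lower and none higher. Under quantile normalization, median ratio scaling or the gene length correction 1 was higher. Of the members introduced above as substrates, PTTG1 and PLK1 fell, CCNB2 and TPX2 rose, and AURKA did not pass. UBE2C, UBE2S and CDC20 were grouped with the APC/C enzymes and are not counted here. Of the 13, TK1, a nucleoside kinase of S phase, averaged 58.0 ± 1.63 FPKM in siMITD1 and 126 ± 2.96 FPKM in control cells (SD, n = 3 each). SKP2 and CDC6 changed by −0.97 and −0.80. Cyclins A2 and B1, relatives of cyclin B2, did not pass: CCNA2 was at −0.04 and CCNB1 at 0.05, both chosen after their values were seen. Of 13 subunits 6 fell and 1, ANAPC16, rose by 0.34, with ANAPC2 at −0.44 and CDC23 at −0.23. Of 9 coactivator, inhibitor and checkpoint genes 5 fell, MAD2L1BP by 0.39, BUB1B by 0.29 and FZR1, the late coactivator, by 0.16, and BUB1 and TRIP13 rose by 0.12 each; 3 fell with length and GC correction. The spindle partners moved both ways, with 5 of 9 higher and 2 lower. NEDD1 rose by 0.55, NEDD9, an activator of AURKA, by 0.47 and AJUBA by 0.37, while HMMR fell by 0.44 and BORA, the cofactor by which AURKA activates PLK1, averaged 2.74 ± 0.234 FPKM in siMITD1 and 4.01 ± 0.211 FPKM in control cells. Of 9 TOP2B and condensin genes 6 fell, with NCAPG2 at −0.51, SMC2 at −0.38 and NCAPD2 at −0.33, and TOP2B (0.31) and NCAPG (0.36) rose. Of 12 genes of the CDK1 switch 4 rose and 5 fell, with ENSA at 0.77, WEE1, which restrains CDK1, at −0.55 and MASTL at −0.36. CDC25B (0.24), PPP2R2D (0.17) and ARPP19 (0.091) were the other genes that rose. Quantile normalization and the gene length correction each turned this balance to 6 higher and 4 lower, and median ratio scaling to 5 higher and 4 lower. Of 4 passenger genes BIRC5 rose and CDCA8 fell, each by 0.28, and with either correction for length 2 rose. Of 10 regulators 4 rose and 4 fell. RBL1 (0.32), LIN54 (0.29), RBL2 (0.19) and MYBL2 (0.065) rose. E2F4 averaged 23.3 ± 0.950 FPKM in siMITD1 and 41.0 ± 0.594 FPKM in control cells, and TFDP1 and RBBP4 changed by −0.72 and −0.52. PCNA (−0.48) and MCM2 (−0.52) fell, and MKI67, at 0.04, did not pass; their part in the members' changes was not tested.

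**Figure D5:**
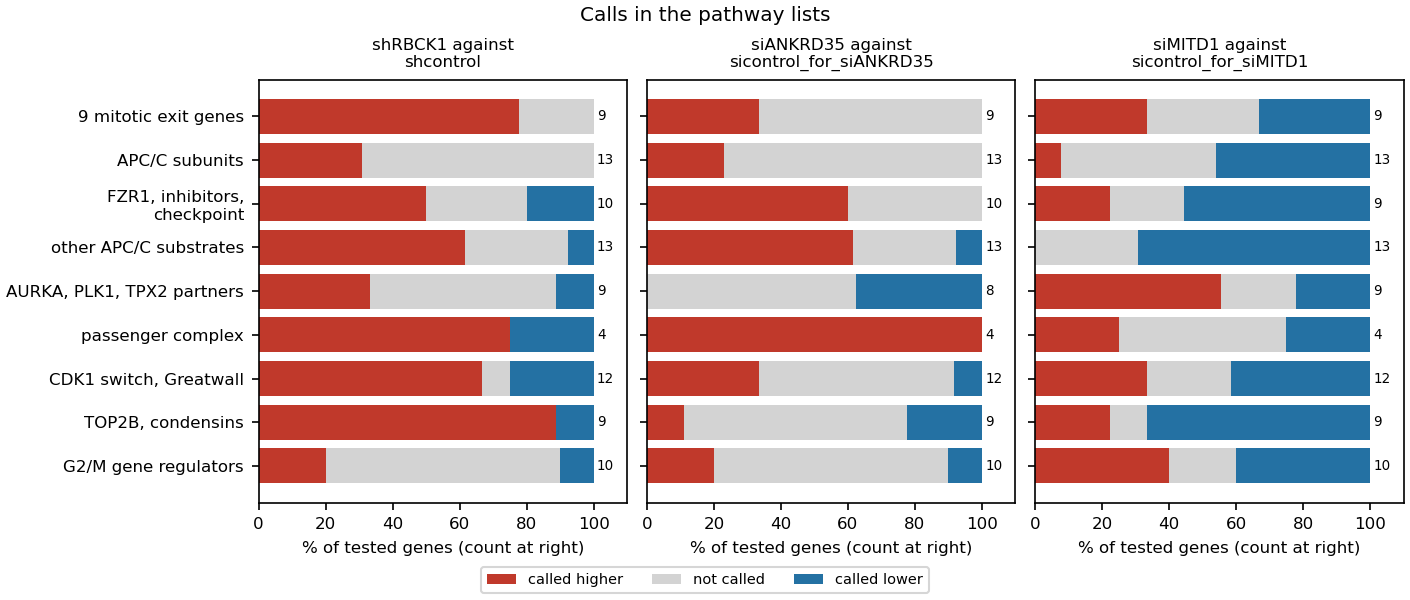
Share of the tested genes of each list called higher, called lower or not called (horizontal axes, %), for the 9 genes and the 8 lists around them, in the 3 comparisons; the count of tested genes stands at the right of each bar. The bar of TOP2B and the condensins is mostly higher in the RBCK1 knockdown, with 8 of 9, and mostly lower in the MITD1 knockdown, with 6 of 9.

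Over the 18 libraries, each gene taken as log2(FPKM + 1) minus its mean in the table, AURKA followed the mean of the other 8 most closely, at a Pearson r of 0.939, and UBE2C came next at 0.825. PTTG1 (0.628), TOP2A (0.540), PLK1 (0.476), CDC20 (0.446), CCNB2 (0.441) and UBE2S (0.418) followed it less, and TPX2 was at −0.225. The points share libraries and their scaling. Over the 17 libraries without siANKRD35 replicate 2, AURKA was at 0.936, UBE2C at 0.795 and TPX2 at −0.360, and the other 6 lay between 0.386 and 0.575. Over all 18 libraries, of 9253 other genes tested in all 3 tables, the 6 whose pattern was most like the mean of the 9 were WSB2 and CCNA2 (both 0.969), SNX17 and RTN4IP1 (both 0.964), and STMN1 and MRPS16 (both 0.961). Only genes whose symbols hold capital letters and digits alone were ranked. CCNA2 encodes cyclin A2 and STMN1 the microtubule regulator stathmin. All 6 rose in the RBCK1 and the ANKRD35 knockdown, by 0.19 to 0.55 and 0.41 to 0.75. In the MITD1 knockdown their changes lay between −0.09 and −0.04, and 1 of them, SNX17, fell. The 6 were chosen for moving like the 9 in these same libraries, so these directions follow from the choice.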

How the data were processed

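The 18 libraries were grouped by their titles. Per the labels' protocols, column-purified total RNA went into directional libraries. The submitters' processing notes name the mouse build mm10, but 58735 of 58735 genes of the RBCK1 and ANKRD35 tables have the human coordinates of GENCODE 29 on GRCh38; aligner, counter and counting strand are not stated in these sources. The FPKM values were used as the authors deposited them; gene lengths are another deposited column of the RBCK1 and ANKRD35 tables, and the MITD1 table lists symbols alone. FPKM times length came out as whole reads (tolerance 0.01) for 100% of genes in the 2 tables with lengths. With the RBCK1 table's lengths it did for 95.8 to 96.0% of the MITD1-table genes that matched by symbol. No libraries were identical, and the chi-square per gene between replicates was 2.12 or more. A further 6 value columns of the ANKRD35 table match none of the 18 samples and were not used.

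Each table was fitted alone with limma 3.58.1 in R 4.3.3 (limma-trend on log2(FPKM + 1), genes reaching 1 FPKM in 3 or more of 6 libraries, two-sided, Benjamini-Hochberg over all genes tested, adjusted p under 0.05), after a test on simulated data. Count tests foreseen for count tables were not needed as main tests. Intervals are at 95% and cover the spread between libraries. Reads without molecular identifiers are not independent molecules, so the counting error covers counting alone. Alternatives were another pseudocount (0.1), no filter, quantile normalization, median ratio scaling, gene length correction, voom on recovered reads, a replicate block and leaving out each library; a correction for length and GC content together was chosen after seeing the data. The 9 genes and all lists were chosen with earlier results of these data known. Named genes outside the 9 were, per list, up to 3 called genes with the smallest adjusted p and those called against the list's majority. For the regulators in the MITD1 knockdown, where as many rose as fell, those that rose are named too. Promoters are from RefSeq. 1 blood cell marker of the list is not reported here.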

Additional observations from a re-analysis of the deposited data

How the results depend on the processing

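Of 378 values of the 9 genes under 14 alternatives each, 341 kept their direction and side of the threshold, 14 lost and 13 gained the call, and 10 turned direction; none of those 10 was called in its comparison. In the RBCK1 knockdown UBE2S turned to 0.033 under quantile normalization, and PTTG1 to −0.00029 under median ratio scaling and to between −0.060 and 0.053 over the libraries left out. In the ANKRD35 knockdown CDC20 turned to −0.058 (quantile normalization) and CCNB2 to −0.0014 (length correction) and −0.040 (length and GC correction). In the MITD1 knockdown AURKA turned to 0.013 (length correction) and TOP2A ran from −0.00099 to 0.058 with libraries left out. The CCNB2 to PLK1 difference of the ANKRD35 table ran from −0.17 to 0.028 with libraries left out. Of the 9 genes in the ANKRD35 knockdown 2 to 6 were higher and 0 to 1 lower with a library left out, and 1 was lower with length and GC correction. For the lists there, 17 were higher under quantile normalization and 5 lower with length correction; with a library left out 13 to 36 were higher and 5 to 16 lower. The cause was not tested. Over all genes of the ANKRD35 table, calls numbered 4312, against 6518 without siANKRD35 replicate 2, 2814 without replicate 3 and 2157 to 2240 without a control library. With voom 39.1% of its calls were higher, against 53.5% without it, and among RBCK1 knockdown calls the share was 61.1% against 49.2%.

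Same-numbered libraries of knockdown and control had deviations that correlated at −0.09 to 0.18, so the numbers were not taken as pairs. With a replicate block, 6 of the 9 rose in the RBCK1 knockdown (CDC20, 0.16, limma adjusted p = 0.0587, was lost), 4 in the ANKRD35 knockdown (UBE2S, 0.43, limma adjusted p = 0.0401, was gained), and 3 rose and 3 fell in the MITD1 knockdown. Own numbers did not give the best match in each library. Depth limits little here, since each value rests on 1112 reads or more; 3 libraries a side limit the precision.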
